A study of Mus musculus with 77 samples.

Results

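The 10 genes described here were *Tnnt2*, which encodes cardiac troponin T, and 9 genes of the smooth muscle contractile apparatus, *Acta2*, *Actg2*, *Myl9*, *Myh11*, *Tagln*, *Cnn1*, *Tpm2*, *Lmod1* and *Des*. They were read from all probes whose transcript belongs to one of these genes, 11 of the 55681 probes that are not controls and 10 of the 21154 genes with a symbol. Each gene had 1 probe, except *Tpm2*, which had a second one. *Tnnt2* was chosen by its measured difference between OIR and control retinas on P17 and P28, *Actg2* by its difference on P17, and the other genes by name, with earlier results of these arrays known. The differences between OIR and control mice are therefore given below as a description of these 10 genes, without a *p*-value.

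The retinas came from C57BL/6 mice in the oxygen-induced retinopathy (OIR) model, in which whole litters were kept in 75% oxygen from P7 to P12, while control litters stayed at 21%. The OIR group held 13 mice on each of P12, P17 and P28, 39 in all, and the control group 12, 12 and 14, 38 in all. Both retinas of a mouse were pooled and hybridized on 1 two-color array with universal mouse reference RNA, a mixture of RNA from several mouse cell lines that was the same for all groups. Each oxygen group held several litters, but the litter of each mouse was not known. Any similarity between mice of one litter could therefore not be taken into account. In whole retinas, a change in the number of cells of a type and a change in their RNA cannot be told apart.

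Smooth muscle cells contract when myosin pulls on actin filaments, and the pull is switched on by phosphorylation of the myosin regulatory light chain. Calponin, transgelin, tropomyosin and leiomodin sit on the actin filament, and desmin anchors the filaments in the cell. Troponin is the calcium switch of striated muscle and has no such place in the textbook account of smooth muscle. In the retina, smooth muscle cells surround the arterioles, and pericytes, which cover the capillaries, share part of this gene program. In the OIR model the oxygen closes central capillaries, and back in room air the ischemic retina grows new vessels, which later regress. Serum response factor, together with myocardin and related factors, is known to drive many smooth muscle genes through the CArG box, a run of A and T bases between CC and GG. The M-CAT element, CATTCCT, is known from the promoter of *Tnnt2* in heart muscle.

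The promoters of *Tnnt2*, *Myl9* and *Acta2* are shown because these genes, whose probes were among the brighter ones of the group, were all higher in the OIR retinas on P17. The sequences are those of RefSeq on the build GRCm38.p6, from 250 bases before the start of the transcript up to the start, 5′ to 3′ on the strand of the gene, and the capitals mark each match to an M-CAT element or to a CArG box in which at most 1 of the inner bases is G or C.

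*Tnnt2*, chr1:135836084-135836333, plus strand: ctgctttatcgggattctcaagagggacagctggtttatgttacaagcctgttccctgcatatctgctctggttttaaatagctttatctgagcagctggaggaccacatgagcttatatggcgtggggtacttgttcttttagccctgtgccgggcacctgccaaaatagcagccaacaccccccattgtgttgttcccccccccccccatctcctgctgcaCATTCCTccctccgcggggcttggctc
*Myl9*, chr2:156775214-156775463, plus strand: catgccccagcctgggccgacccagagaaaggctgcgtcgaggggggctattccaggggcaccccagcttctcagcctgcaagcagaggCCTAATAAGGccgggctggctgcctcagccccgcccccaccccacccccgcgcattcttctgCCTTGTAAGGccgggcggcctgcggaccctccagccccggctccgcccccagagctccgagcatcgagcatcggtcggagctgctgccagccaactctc
*Acta2*, chr19:34255374-34255623, minus strand: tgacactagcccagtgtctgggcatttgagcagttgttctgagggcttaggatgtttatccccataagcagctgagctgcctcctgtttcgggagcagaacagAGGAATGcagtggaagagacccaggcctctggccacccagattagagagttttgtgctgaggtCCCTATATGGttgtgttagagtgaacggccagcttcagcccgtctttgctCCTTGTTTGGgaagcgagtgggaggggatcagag

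The promoter of *Myl9* held an exact CArG box, which begins at position −161 from the start, and a near match at −99. *Acta2* held near matches at −84 and −34, and an M-CAT element on the opposite strand at −147. The first of the RefSeq starts of *Tnnt2* had an M-CAT element at −27 and no CArG box. Of the 10 genes, 7 had a promoter in the RefSeq table, with 8 starts in all, while *Actg2*, *Tagln* and *Myh11* were not in it. In windows from 250 bases before to 50 bases after the start, searched on both strands, an exact CArG box was found in 1 of the 8 member promoters and in 1.63% of 32851 mouse promoters. The near match, which includes the exact one, was found in 2 of 8 and in 9.98% of all promoters, and the M-CAT element in 2 of 8 and in 5.36%. In the member promoters no CArG match overlapped an M-CAT match. These are matches of letters, and nothing bound to these sites was measured.

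The value given for each probe is the offset ratio, the log2 ratio of the retina to the reference after background correction with an offset, so that ratios of weak spots are pulled to 0. The sample labels assign Cy5 to the retina. However, on 77 of 77 arrays Cy3 exceeded Cy5 for *Gnat1*, *Pde6b* and *Sag*, which are genes of rod photoreceptors, with a lowest log2 difference of 4.18, so the ratios run from Cy3 as the retina over Cy5 as the reference, against the labels. The deposited ratio is the table of the authors, which uses no offset. The scanner software marked between 13801 and 34328 probes of an array as well above background in the retina channel. The arrays with fewer than 25000 such probes were 9 of 12 in the P12 control group, 12 of 13 in P12 OIR, 8 of 12 and 11 of 13 on P17, and 5 of 14 and 2 of 13 on P28, so that brightness of the array and age went together, whereas OIR and control mice shared 7 slides on P12, 6 on P17 and 3 on P28. In all, 11 slides were used.

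The label of smooth muscle was checked against the markers themselves. In the retina channel, *Acta2*, *Tagln* and *Myl9* gave a signal well above background on 77 of 77 arrays. These genes are also expressed by pericytes and by other contractile cells. *Myh11*, *Cnn1* and *Lmod1*, the members most specific for mature smooth muscle, were at or near background, as was *Des*. *Myh11*, the smooth muscle myosin heavy chain, was well above background on 17 arrays, *Cnn1* on 11, *Des* on 10 and *Lmod1* on 3 of the 77. A probe was counted on an array when at least 1 of its spots was marked. *Des* and *Acta2* had 10 spots per array and the other members 1 for each probe, so the count of *Des* is not directly comparable with the others. *Tnnt2* reached that level on 42 arrays, *Tpm2* on 48 with its first probe and 27 with its second, and *Actg2* on 17. The reference RNA was above background for every member on at least 72 arrays, except for *Myh11* with 0 arrays and *Lmod1* with 1.

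On P17, the 10 members moved unequally. In the offset ratio, *Myl9*, *Tagln*, *Acta2* and *Tnnt2* were about 2-fold higher in the OIR retinas, and *Tpm2* was higher by less. The fold of *Tnnt2*, whose spot was near background in the control mice, was larger without the offset. *Actg2* was detected on most OIR arrays and on no control array, and *Cnn1*, *Des*, *Myh11* and *Lmod1* stayed near background in both groups. *Tnnt2*, *Tagln* and *Myl9* passed an adjusted *p* of 0.05, which makes 3 of the 10 genes, where 1.13% of all probes passed and 0.803% passed as higher. *Tnnt2* and *Actg2* were chosen by this contrast and the others with its results known, so nothing is read from the counts of members called. The ratios of the 10 genes were higher in the OIR group for 10 of 10, with a median log2 difference of 0.52, and the median of all probes was 0.0010. The differences of *Cnn1*, *Des*, *Myh11* and *Lmod1* rest on spots near background. The share of all probes that were higher was not counted, so nothing is read from this direction either. In the deposited ratio, 6 of the 10 genes were called, again beside 2.64% of all probes, with *Acta2*, *Actg2* and *Tpm2* added. With an offset of 0 there were 5 (1.65% of all probes), in the retina channel alone 6 (3.04%), and with the brightness of the array as a covariate 5 (3.68%). On P12 and on P28 no member was called, and the background was 0.0233% and 0.0611% of the probes.

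*Tnnt2* encodes the troponin subunit that binds tropomyosin. In the P17 control retinas, its log2 ratio ranged from −1.21 to −0.22 with a median of −0.58, and 5 of 12 arrays were well above background. In the P17 OIR retinas it ranged from −0.35 to 0.70 with a median of 0.08, and 13 of 13 arrays were well above background. Of the 13 OIR mice, 12 lay above the highest control mouse, and 1 lay within the control range. No member separated the groups fully, as 0.119% of all probes did upwards on this day. The difference was 0.81 (SE 0.12), or 1.75-fold, with a 95% confidence interval from 0.55 to 1.06. Without the offset the contrast was larger, 3.08 (SE 0.27) in the deposited ratio, where the group mean went from −2.84 ± 0.69 (SD, n = 12) to 0.24 ± 0.70 (SD, n = 13). The raw spot shows the scale of this. Its Cy3 signal was 35 to 64 in the control mice, with a median of 42.5 over a local background of 28.5, and 51 to 644.5 in the OIR mice, with a median of 77 over a local background of 25. The size of the fold of *Tnnt2* thus depended on how a spot just above background was treated, while the direction did not. The same difference was 1.18 (SE 0.13) in the retina channel alone, and the reference channel of this probe differed by 0.0090 (SE 0.043).

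The plot of the brighter members by mouse shows the same order of groups for *Tnnt2* and *Myl9* at the upper end, with the P17 OIR mice first and the P28 OIR mice next.

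**Figure D1:**
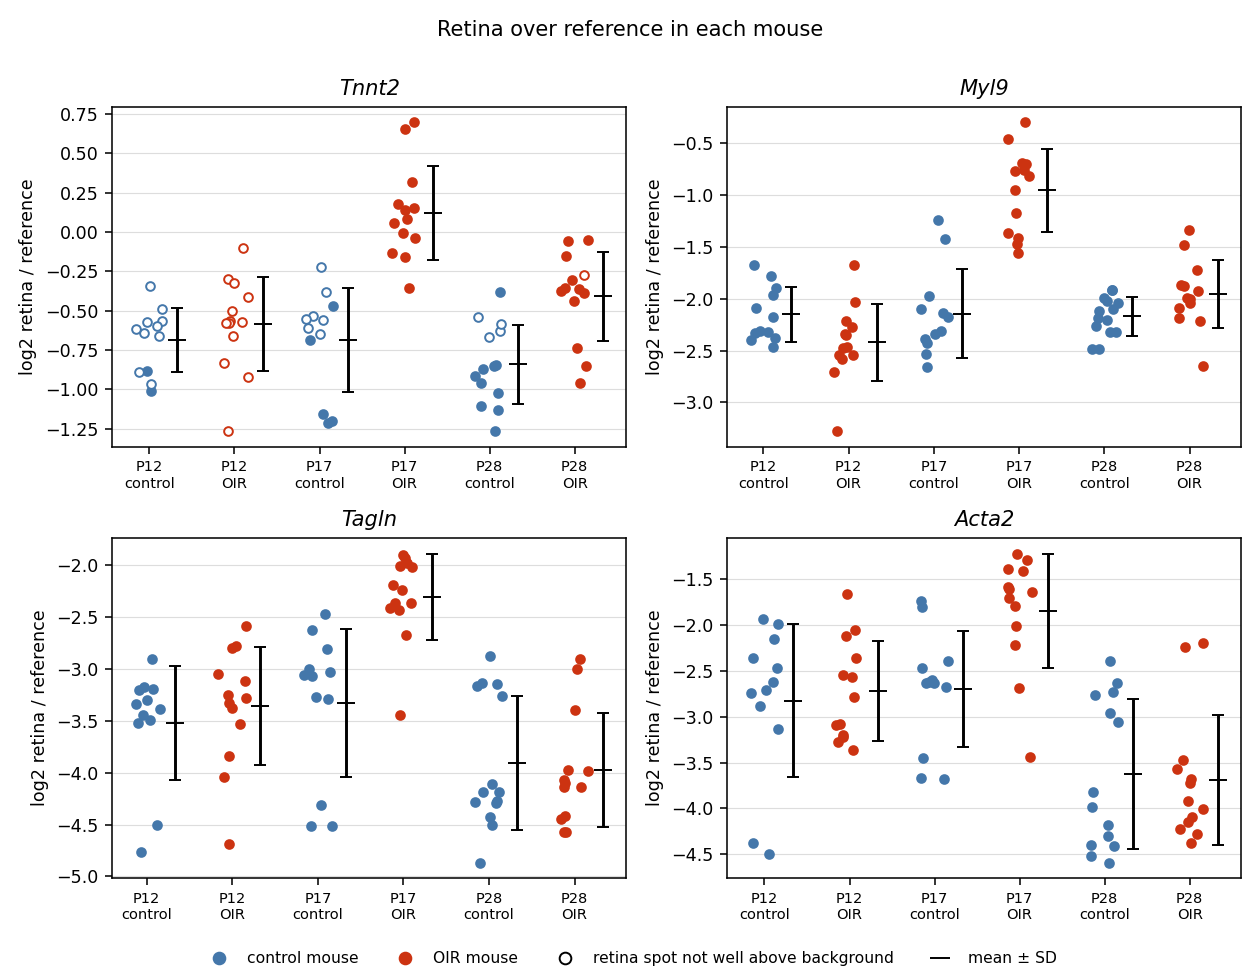
Log2 ratio of retina over reference (y axis) in each mouse of the 6 groups (x axis) for *Tnnt2*, *Myl9*, *Tagln* and *Acta2*, with the mean and SD beside the points and open points for spots not well above background. For *Tnnt2*, 12 of 13 OIR mice on P17 lie above the highest control mouse, and on P28 this holds for 8 of 13.

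On P12, at the end of the oxygen, *Tnnt2* was near background in both groups, with 2 of 12 control arrays and 0 of 13 OIR arrays well above it. The ratio was −0.69 ± 0.20 (SD, n = 12) in the control mice and −0.59 ± 0.30 (SD, n = 13) in the OIR mice, and the groups overlapped. On P28, the control mice ranged from −1.26 to −0.38 with a median of −0.86, and the OIR mice from −0.96 to −0.05 with a median of −0.36. Here 8 of 13 OIR mice lay above the highest control mouse, and the difference was 0.43 (SE 0.10), 1.35-fold, with an interval from 0.23 to 0.64. It was not called in the offset ratio. With the slide as a block it was 0.55 (SE 0.080) and called, where 0.219% of the probes were, and in the deposited ratio it was 1.52 (SE 0.17) and called, where 0.203% were. *Tnnt2* was also the 1 member called on P28 with an offset of 0 (0.079% of all probes), without background subtraction (0.11%), in the retina channel alone (0.286%) and with the covariate (0.233%). All of these calls use the P28 values by which *Tnnt2* was chosen, and they are given as a description only. Full separation upwards on P28 was seen for 0.00539% of the probes. Within the 3 slides that held both groups on P28, the OIR mice were higher on 3 of 3, by 0.47 to 0.65. Across the 6 groups, the mean ratio of *Tnnt2* was highest in P17 OIR (0.12), followed by P28 OIR (−0.41), P12 OIR (−0.59), P17 control (−0.68), P12 control (−0.69) and P28 control (−0.84). Only the first step of this order was larger than the SD within the groups.

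*Myl9* encodes a regulatory light chain of smooth muscle and non-muscle myosin, the protein whose phosphorylation starts contraction. It ranged from −2.66 to −1.24 in the P17 control mice with a median of −2.25, and from −1.56 to −0.30 in the OIR mice with a median of −0.81. All 13 OIR mice lay above the control median and 9 above the highest control mouse, so the groups overlapped in the remaining mice. The difference of 1.19 (SE 0.16), 2.28-fold, was the largest of the 10 members in the offset ratio. It was 1.45 (SE 0.16) in the deposited ratio and 1.11 (SE 0.11) in the retina channel alone, and it was positive within 6 of 6 slides, from 0.92 to 1.59. Thus *Myl9*, bright in every mouse, gave nearly the same size on each scale.

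*Myl9* was also the member with the clearest lower values in the OIR mice on P12. The P12 OIR mice ranged from −3.28 to −1.67 with a median of −2.46, against −2.46 to −1.67 with a median of −2.24 in the control mice. Of the 13 OIR mice, 6 lay below the lowest control mouse. The difference was −0.27 (SE 0.13), with an interval from −0.53 to −0.01, and −0.53 (SE 0.15) in the deposited ratio, neither of them called. The difference between OIR and control mice moved from P12 to P17 by 1.46 (SE 0.19). By P28 the difference of *Myl9* had come down to 0.22 (SE 0.099).

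Transgelin, the product of *Tagln*, is an actin-binding protein that is found early in smooth muscle cells. Its ratio on P17 ranged from −4.52 to −2.47 in the control mice, with a median of −3.06, and from −3.45 to −1.90 in the OIR mice, with a median of −2.24. Of the 13 OIR mice, 11 lay above the highest control mouse. The difference was 1.03 (SE 0.22), 2.04-fold, and 1.40 (SE 0.22) in the deposited ratio. Within the slides it was 0.69 to 1.45, higher in OIR on 6 of 6. On P12 the difference was 0.16 (SE 0.22) and on P28 −0.07 (SE 0.22), with intervals that reached from −0.29 to 0.61 and from −0.53 to 0.39.

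The actins of the group were *Acta2*, which encodes the smooth muscle alpha-actin used to mark contractile mural cells and myofibroblasts, and *Actg2*, which encodes the gamma-actin of enteric smooth muscle. *Acta2* ranged from −3.68 to −1.74 in the P17 control mice with a median of −2.62, and from −3.43 to −1.22 in the OIR mice with a median of −1.63. Of the 13 OIR mice, 8 lay above the highest control mouse. The difference was 0.85 (SE 0.24), 1.81-fold, which was not called in the offset ratio and was called in the deposited ratio at 1.04 (SE 0.26) and with the slide as a block at 0.77 (SE 0.14), where 1.49% of the probes were called. On P28 the mean was −3.62 ± 0.82 (SD, n = 14) in the control mice and −3.69 ± 0.71 (SD, n = 13) in the OIR mice, a difference of −0.06 with an interval from −0.65 to 0.53.

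*Actg2* was a different case. Its spot was well above background on 0 of 12 control arrays and on 11 of 13 OIR arrays on P17. The raw Cy3 signal was 33 to 50 in the control mice, with a median of 40, and 42 to 207.5 in the OIR mice, with a median of 52, and the median local background was 28 in both groups. As the control mice give only a limit, the group mean of *Actg2* was at least 1.43-fold higher in the OIR retinas in the retina channel. That limit, 6.0135 in log2, was nearly equal to the measured control mean of 6.0133. The bound includes the OIR arrays that were not above background, and it has no interval. In the offset ratio the OIR mice ranged from −2.55 to −0.96 and the control mice from −3.21 to −0.88, and 0 of 13 OIR mice lay above the highest control mouse. The wide range of the control mice came with a retina signal at background over a reference that was above background on 77 arrays. On P12 no array of either group showed *Actg2* well above background, and on P28 it did so on 1 of 14 control and 5 of 13 OIR arrays.

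The plot of the dimmer members separates spots that were well above background from those that were not.

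**Figure D2:**
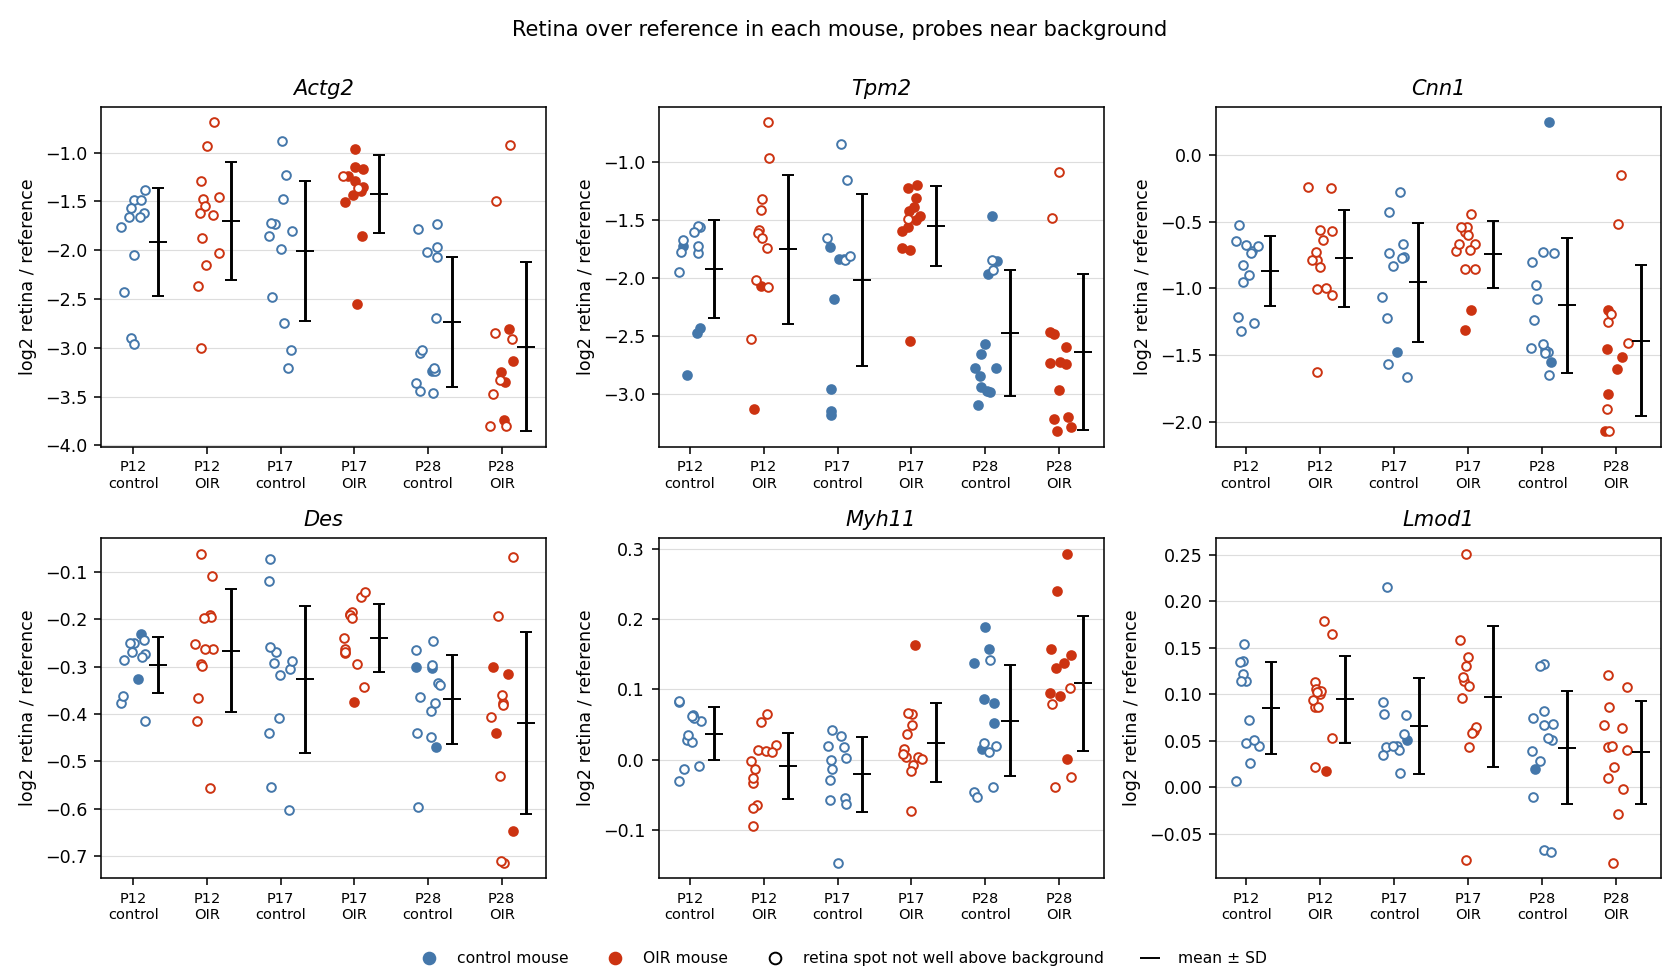
Log2 ratio of retina over reference (y axis) in each mouse of the 6 groups (x axis) for *Actg2*, *Tpm2*, *Cnn1*, *Des*, *Myh11* and *Lmod1*, with the mean and SD, and open points for spots not well above background. *Actg2* has 11 filled points of 13 in the P17 OIR mice and 0 of 12 in the P17 control mice, while *Lmod1* has 3 in all.

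*Tpm2* encodes beta-tropomyosin, which lies along the actin filament in smooth and skeletal muscle. On P17 it was well above background on 7 of 12 control and 12 of 13 OIR arrays, and its ratio was −2.01 ± 0.74 (SD, n = 12) in the control and −1.55 ± 0.34 (SD, n = 13) in the OIR mice. Of the OIR mice, 12 of 13 lay above the control median and 0 above the highest control mouse. The difference was 0.46 (SE 0.22), with an interval from 0.01 to 0.91, and the second probe gave 0.34 (SE 0.21). That second probe was well above background on only 2 of 12 control and 3 of 13 OIR arrays on P17. In the deposited ratio the first probe was called at 1.18 (SE 0.20). On P28 both probes were slightly lower in the OIR mice, by −0.16 (SE 0.23) and −0.19 (SE 0.22).

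The remaining members, which include the markers of mature smooth muscle, gave small values in the offset ratio on P17, none of them called. *Cnn1*, calponin, differed by 0.21 (SE 0.14), and 1 of 12 control and 2 of 13 OIR arrays were well above background. *Des*, the intermediate filament protein desmin, differed by 0.09 (SE 0.047), with 0 of 12 and 1 of 13 arrays. For *Myh11* the value was 0.04 (SE 0.022), with 0 of 12 and 1 of 13 arrays, and for *Lmod1*, leiomodin, it was 0.03 (SE 0.026), with 1 of 12 and 0 of 13 arrays. In the deposited ratio the differences were 0.77 for *Cnn1*, 0.71 for *Des*, 0.41 for *Myh11* and 0.34 for *Lmod1*, again not called. With so few arrays above background, these values rest on spots without a clear signal, and they do not show that the groups were equal. *Myh11* came above background on more arrays on P28, 7 of 14 in the control and 9 of 13 in the OIR mice, where the arrays were brighter, and its difference was then 0.05 (SE 0.033). One P28 control mouse stood apart in *Cnn1*, at 0.24, while the median of its group was −1.33.

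**Figure D3:**
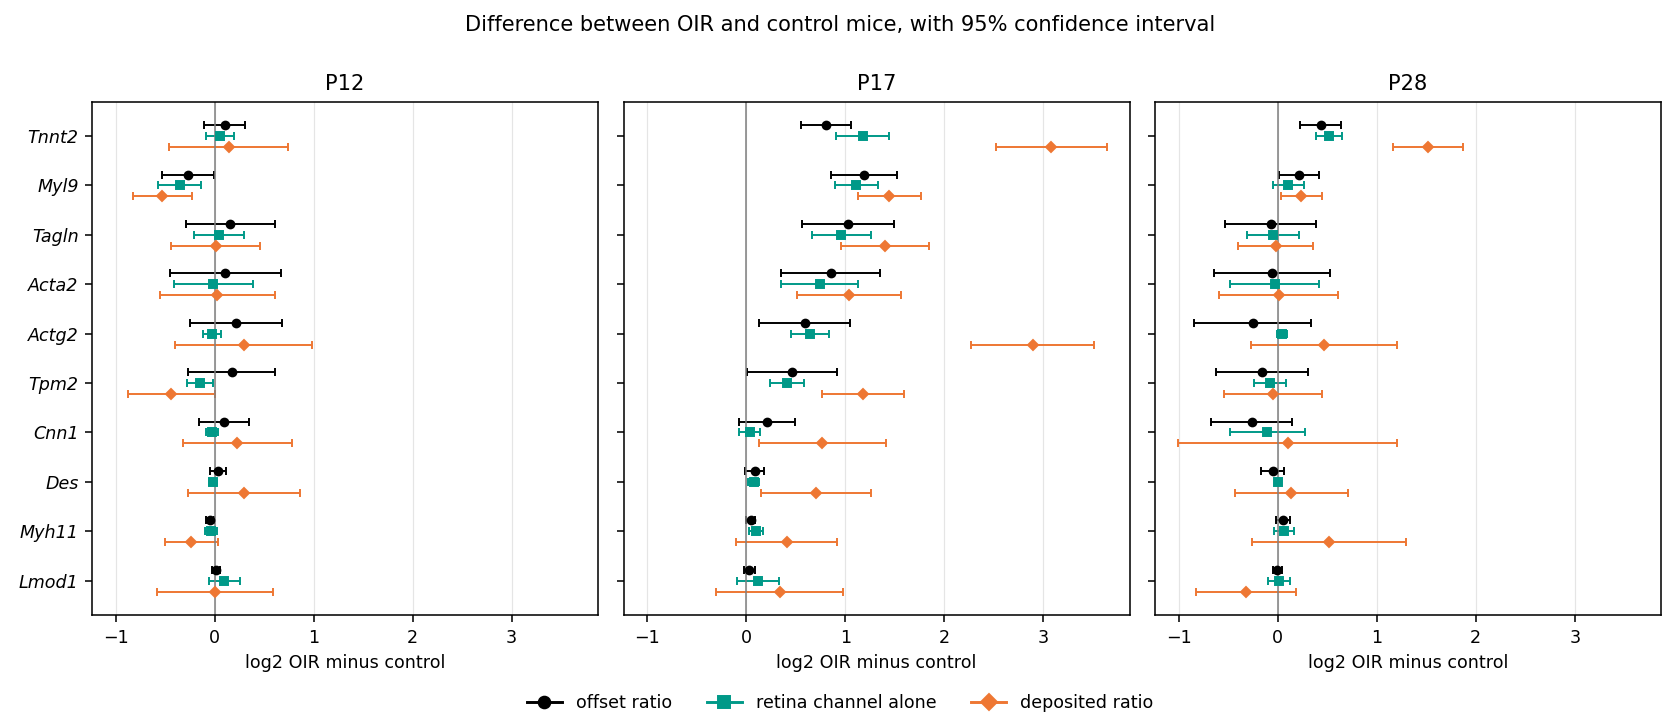
Difference between OIR and control mice (x axis, log2) for the 10 members (y axis) on P12, P17 and P28, with 95% confidence intervals, in the offset ratio, in the retina channel alone and in the deposited ratio. On P17 *Tnnt2* moves from 0.81 in the offset ratio to 3.08 in the deposited ratio, whereas *Myl9* moves from 1.19 to 1.45.

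The differences were largest on P17 for *Tnnt2*, *Myl9*, *Tagln* and *Acta2* on every scale shown in the plot of differences by day. From P17 to P28 the OIR mice differed by −1.84 (SE 0.27) for *Acta2*, −1.68 (SE 0.23) for *Tagln*, −0.997 (SE 0.13) for *Myl9* and −0.53 (SE 0.11) for *Tnnt2*. Since the brightness of the arrays went with age, these values were set against the difference to the control mice of the same day. That difference moved from P17 to P28 by −1.10 (SE 0.32) for *Tagln*, −0.97 (SE 0.19) for *Myl9*, −0.91 (SE 0.39) for *Acta2* and −0.37 (SE 0.15) for *Tnnt2*. Brightness also differed between OIR and control arrays of a day, so these steps are not free of it. Arrays with fewer than 25000 probes well above background were 8 of 12 control and 11 of 13 OIR arrays on P17. The numbers on P28 were 5 of 14 and 2 of 13. The part of brightness in these steps was not tested. On P28 the difference between OIR and control mice was 0.43 for *Tnnt2*, 0.22 for *Myl9*, −0.07 for *Tagln* and −0.06 for *Acta2*. Whether these genes differ from each other was not tested. The values of *Tagln* and *Acta2* changed direction with the slide as a block, to 0.21 (SE 0.12) and 0.18 (SE 0.16), and that of *Myl9* was 0.28 (SE 0.10). Within the 3 slides that held both groups, *Acta2* was higher in the OIR mice on 3, by 0.03 to 0.44, *Myl9* on 3, by 0.0053 to 0.53, and *Tagln* on 2, with values from −0.07 to 0.53.

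The steps of age in the control mice were not themselves used to choose the members and were tested in limma with adjustment over all probes. However, the control values of P17 entered the choice of *Tnnt2* and *Actg2*, and those of P28 the choice of *Tnnt2*. For these genes the age values and calls are therefore a description and no independent test. Both steps share the P17 control mice. From P12 to P17, 0 of the 10 members were called, with 1 at an unadjusted *p* under 0.05, and 1.28% of all probes were called. The changes over this step were 0.0052 (SE 0.14) for *Myl9*, 0.0013 (SE 0.11) for *Tnnt2*, 0.13 (SE 0.28) for *Acta2* and 0.19 (SE 0.23) for *Tagln*. From P17 to P28, 3 of 10 were called, where 13.4% of all probes were. *Acta2* fell by 0.93 (SE 0.27, adjusted *p* = 0.0146), from −2.69 ± 0.63 (SD, n = 12) to −3.62 ± 0.82 (SD, n = 14). For *Actg2* the change was −0.72 (SE 0.25, adjusted *p* = 0.0448) and for *Myh11* 0.08 (SE 0.026, adjusted *p* = 0.0368), but both had 0 of 12 P17 control arrays well above background, and *Actg2* also had 13 of 14 P28 arrays that were not. *Tagln* changed by −0.58 (SE 0.23, adjusted *p* = 0.0766), *Tnnt2* by −0.15 (SE 0.11, adjusted *p* = 0.388) and *Myl9* by −0.03 (SE 0.13, adjusted *p* = 0.933). With the slide as a block the calls were *Acta2*, *Actg2* at −0.32 (SE 0.11, adjusted *p* = 0.0419) and *Tagln* at −0.41 (SE 0.15, adjusted *p* = 0.0461), while *Myh11* was not called at 0.06 (SE 0.028, adjusted *p* = 0.173).

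The fall of *Acta2* with age moved together with the brightness of the arrays. Within the groups, the offset ratio of *Acta2* had a correlation of −0.86 with the log2 number of probes well above background over 77 arrays, and *Actg2* had one of −0.90, *Tagln* −0.79, *Tnnt2* −0.54 and *Myl9* −0.45. In the retina channel alone this was −0.85 for *Acta2* and −0.68 for *Tagln*, but −0.04 for *Tnnt2*, 0.09 for *Myl9* and 0.02 for *Actg2*. With that number as a covariate, which was added after the data were seen, the change of *Acta2* from P17 to P28 was −0.13 (SE 0.15, adjusted *p* = 0.681). On the arrays with fewer than 25000 such probes it was −0.33 (SE 0.22, adjusted *p* = 0.466), and with the slide as a block it was −0.67 (SE 0.18, adjusted *p* = 0.00704). With the covariate 0 of the 10 members were called over this step, beside 11.9% of all probes, and on the arrays with fewer than 25000 probes 0 were called beside 1.81%, while *Acta2* had an adjusted *p* of at most 0.0156 under the other alternatives. By contrast, the difference between OIR and control mice on P17 was nearly the same with the covariate, 0.79 for *Tnnt2*, 1.15 for *Myl9*, 0.95 for *Tagln* and 0.76 for *Acta2*. On the arrays with fewer than 25000 probes it was 0.57, 1.07, 0.79 and 0.75 in the same order.

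**Figure D4:**
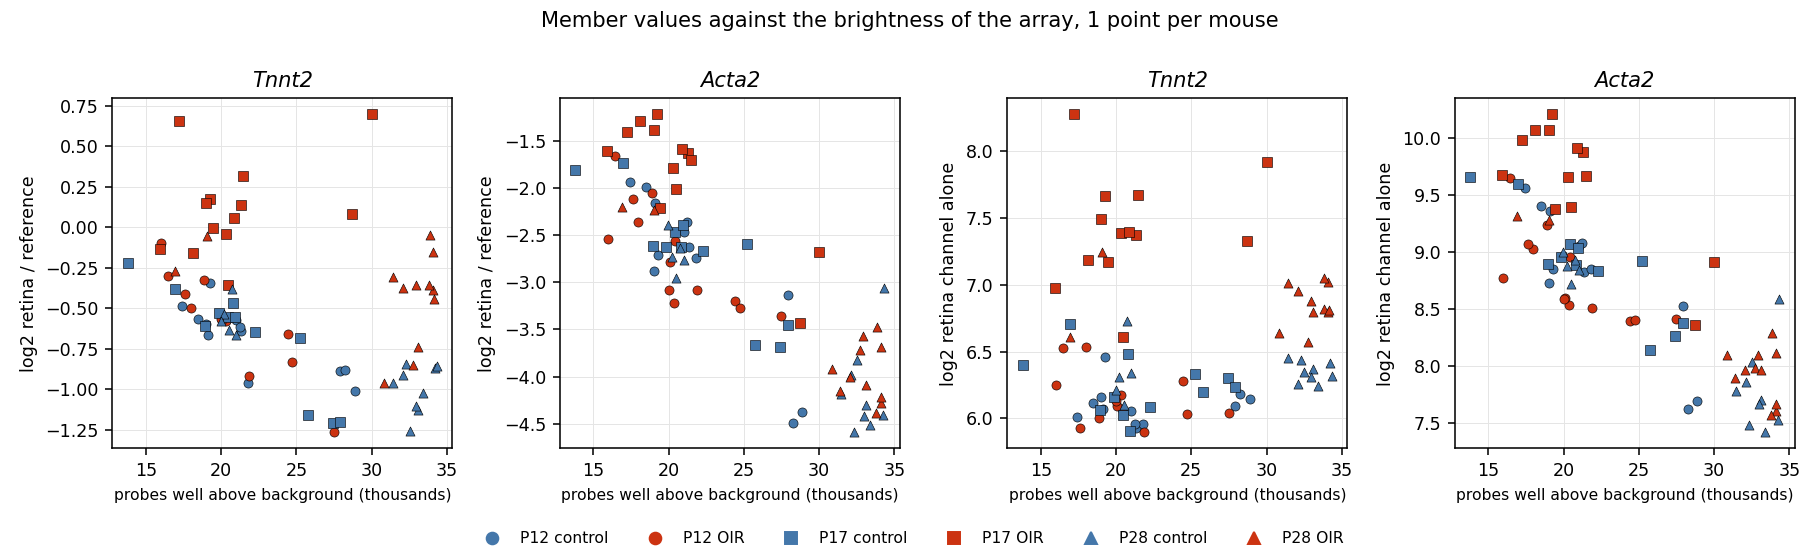
Log2 ratio of retina over reference, and log2 retina channel alone (y axes), for *Tnnt2* and *Acta2* against the number of probes well above background on the array (x axis), with 1 point per mouse and a symbol and color for each of the 6 groups. *Acta2* declines with brightness in both measures, with within-group correlations of −0.86 and −0.85, and *Tnnt2* in the ratio, at −0.54, and not in the retina channel alone, at −0.04.

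The members did not all follow each other from mouse to mouse. The correlations given here are descriptions over 77 arrays that share one reference RNA and differ in brightness. After the group means were taken out, the offset ratio of *Acta2* and *Tagln* had a correlation of 0.87, and in the retina channel alone it was 0.77. For *Tnnt2* and *Acta2* it was 0.54 in the offset ratio and 0.11 in the retina channel alone. *Tnnt2* and *Myl9* gave 0.55 and 0.33, and *Myl9* and *Acta2* 0.44 and −0.02. *Acta2* and *Tagln* therefore varied together among arrays of one group in both measures, whereas *Tnnt2* and *Myl9* were tied to them mainly through the ratio. In the retina channel alone, *Acta2* and *Tagln* also both followed the brightness of the array within groups, at −0.85 and −0.68. *Tnnt2* and *Myl9* did not, at −0.04 and 0.09. The part of brightness in these correlations was not tested.

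The genes whose offset ratio was most like that of *Tnnt2* over the 77 arrays, among 15164 genes, were *Bcl3* (*r* = 0.96), *S100a6* (0.89), *Tgm2* (0.88), *Osmr* (0.88) and *Tmbim1* (0.87). *Bcl3* encodes a cofactor of nuclear factor kappa B, *Osmr* the receptor subunit for oncostatin M, *S100a6* a calcium-binding protein and *Tgm2* tissue transglutaminase. Of the contractile members, *Myl9* ranked 26, *Tagln* 68, *Acta2* 304, *Tpm2* 332 and *Actg2* 496 in likeness to *Tnnt2*. The neighbours of *Tnnt2* in this order were higher in the OIR retinas on P17 as well, *Bcl3* by 1.68 (SE 0.23, adjusted *p* = 9.76e-05 in limma), *S100a6* by 1.85 (SE 0.21, adjusted *p* = 4.64e-06), *Tgm2* by 1.10 (SE 0.21, adjusted *p* = 0.00378), *Osmr* by 0.84 (SE 0.14, adjusted *p* = 0.000866) and *Tmbim1* by 0.66 (SE 0.13, adjusted *p* = 0.00415). As likeness was measured over the same mice, a shared difference on P17 is part of what ranked them. On P28 none of the 5 was called in the offset ratio, with *Bcl3* at 0.81 (SE 0.17, adjusted *p* = 0.0716). With the slide as a block *Bcl3* was called on P28 at 1.01 (SE 0.15, adjusted *p* = 0.00259) and *Osmr* at 0.73 (SE 0.079, adjusted *p* = 0.000112).

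A different set was most like *Acta2*. *Aebp1*, a secreted matrix-associated protein, came first (*r* = 0.98), followed by the actin-capping gene *Capg* (0.96), *Pdlim7* (0.96), *S100a11* (0.96) and *Lgals1* (0.95). On P17 they differed between OIR and control mice by 0.54 to 0.79, and none of them was called, with adjusted *p* from 0.0725 for *Aebp1* to 0.265 for *Capg*. With the slide as a block 4 of the 5 were called on P17, where 1.49% of all probes were. Their adjusted *p* ran from 0.00482 for *Aebp1* to 0.0304 for *Lgals1*, and *Capg* was not called (adjusted *p* = 0.104). Likeness to *Acta2* was measured over the same mice, so a shared difference on P17 is part of what ranked these genes. Nothing is read from the count of those called. *Tagln* ranked 28 in likeness to *Acta2*, *Tnnt2* 2613 and *Myl9* 3048. *Acta2* itself followed the brightness of the arrays, so the part of brightness in this list was not tested.

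The other genes of contraction were examined as a list. This list and those below were chosen with earlier results of these arrays known, so their calls are a description and no independent test. Of 23 contractile genes that are no members, 3 passed the test on P17, all of them as higher, beside 0.803% of all probes, and their median difference was 0.12. *Flna*, which encodes the actin cross-linker filamin A, went from −2.44 ± 0.14 (SD, n = 12) to −1.42 ± 0.25 (SD, n = 13), a rise of 1.02 (SE 0.078, adjusted *p* = 7.04e-09). *Csrp1*, a LIM protein of smooth muscle, rose by 0.75 (SE 0.12, adjusted *p* = 0.000521), and *Cnn3*, a calponin of non-muscle cells, by 0.30 (SE 0.055, adjusted *p* = 0.00266). The smoothelin gene *Smtn*, a marker of contractile smooth muscle, gave 0.46 (SE 0.16, adjusted *p* = 0.236), *Cald1* 0.48 (SE 0.16, adjusted *p* = 0.21), and *Mylk*, the kinase that phosphorylates the light chain, −0.02 (SE 0.080, adjusted *p* = 0.946). *Pdlim7* was called in addition with the slide as a block on P17, at 0.59 (SE 0.12, adjusted *p* = 0.0183). On P12 and P28, 0 of the 23 were called in limma.

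Among 13 genes of the serum response factor, myocardin and TGF-beta systems, 0 were called in limma on P12, P17 or P28 in the offset ratio. *Smad3*, a signal transducer of TGF-beta, was called with the slide as a block on P17, at 0.15 (SE 0.033, adjusted *p* = 0.0288). The median of the list on P17 was 0.08. *Srf* itself gave 0.01 (SE 0.075, adjusted *p* = 0.972), *Myocd*, myocardin, 0.04 (SE 0.023, adjusted *p* = 0.592), and *Tgfb1* 0.36 (SE 0.21, adjusted *p* = 0.579). In the deposited ratio *Tgfb1* was called at 1.25 (adjusted *p* = 0.000644) and *Tgfb2* at 0.29 (adjusted *p* = 0.022). The troponin partners of *Tnnt2* and the sarcomere of striated muscle formed a list of 25 genes, of which 0 were called in limma between OIR and control mice on any of the 3 days. Most of them were dim, since 4 of the 25 were well above background on at least 39 arrays and 3 on none. The cardiac troponins *Tnnc1* and *Tnni3* gave 0.07 (SE 0.030, adjusted *p* = 0.4) and 0.0066 (SE 0.021, adjusted *p* = 0.926) on P17, and the skeletal troponin T genes *Tnnt1* and *Tnnt3* −0.17 (SE 0.058, adjusted *p* = 0.24) and −0.07 (SE 0.11, adjusted *p* = 0.845).

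Markers of other cell types were read beside the members, and their counts stand beside 1.13% of all probes called on P17 (0.803% as higher), 0.0233% on P12 and 0.0611% on P28. These marker lists, too, were chosen with earlier results of these arrays known, and their adjusted *p* values describe the same mice. Of 11 pericyte genes, 5 rose on P17, *Ndufa4l2* by 2.03 (SE 0.096, adjusted *p* = 1.82e-12), *Cd248* by 1.97 (SE 0.18, adjusted *p* = 1.16e-07), *Higd1b* by 0.96 (SE 0.14, adjusted *p* = 0.000243), *Cspg4* by 0.73 (SE 0.16, adjusted *p* = 0.0213) and *Notch3* by 0.63 (SE 0.14, adjusted *p* = 0.0174). *Pdgfrb* and *Rgs5*, which are widely used to mark pericytes, gave 0.31 (SE 0.093, adjusted *p* = 0.13) and 0.04 (SE 0.17, adjusted *p* = 0.949), and with the slide as a block *Pdgfrb* was called at 0.37 (SE 0.087, adjusted *p* = 0.0465). *Ndufa4l2* is also known as a gene induced by hypoxia. None of the 11 was at background on all arrays. The summed retina signal of the pericyte list, after quantile normalization between arrays and with the offset taken off, was 3605 to 6166 with a median of 5035 in the P17 control mice and 4741 to 8393 with a median of 6960 in the OIR mice. For the 10 members it was 711.3 to 1503 with a median of 1098, and 1222 to 2862 with a median of 2388. On P12, 2 of the 11 pericyte genes fell, *Higd1b* by 0.62 (SE 0.10, adjusted *p* = 0.0135) and *Abcc9* by 0.37 (SE 0.048, adjusted *p* = 0.000559), and on P28 *Ndufa4l2* alone was higher, by 0.79 (SE 0.066, adjusted *p* = 8.18e-08), to which the slide as a block added *Higd1b* at 0.23 (SE 0.047, adjusted *p* = 0.0428). On P28 the summed signal was 5676 to 7599 in the control and 5705 to 8528 in the OIR mice.

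Of 12 endothelial genes, *Cd34* and *Egfl7* fell on P12, by 0.81 (SE 0.11, adjusted *p* = 0.00111) and 0.86 (SE 0.095, adjusted *p* = 7.68e-05), and rose on P17, by 1.33 (SE 0.11) and 1.09 (SE 0.092), both with an adjusted *p* of 4.47e-08. No other gene of this list was called between OIR and control mice on any day in the offset ratio, and with the slide as a block *Cdh5*, the cadherin of endothelial junctions, was called on P17 at 0.42 (SE 0.088, adjusted *p* = 0.0214). The summed signal of this list on P17 was 2432 to 4257 in the control and 3533 to 6039 in the OIR mice. Of 7 fibroblast genes, *Fbln1* alone was called on P17, at 0.75 (SE 0.18, adjusted *p* = 0.0319), while *Col1a1* gave 0.97 (SE 0.35, adjusted *p* = 0.256) and was called with the slide as a block (0.89, SE 0.21, adjusted *p* = 0.0499), and their summed signal was 425.1 to 933.2 in the control and 824.1 to 1626 in the OIR mice. Of 8 genes of the pigment epithelium, *Rpe65* alone was called on P17, where it fell by 0.81 (SE 0.19, adjusted *p* = 0.0322). This call was lost with the slide as a block, at −0.69 (SE 0.18, adjusted *p* = 0.0787). The summed signal of the list was 563.3 to 1445 in the control and 424.3 to 1485 in the OIR mice. None of the 5 lens genes was called, and their summed signal was 52.73 to 1615 in the control and 35.5 to 1563 in the OIR mice on P17. The part of these cells in the differences of the members was not tested.

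**Figure D5:**
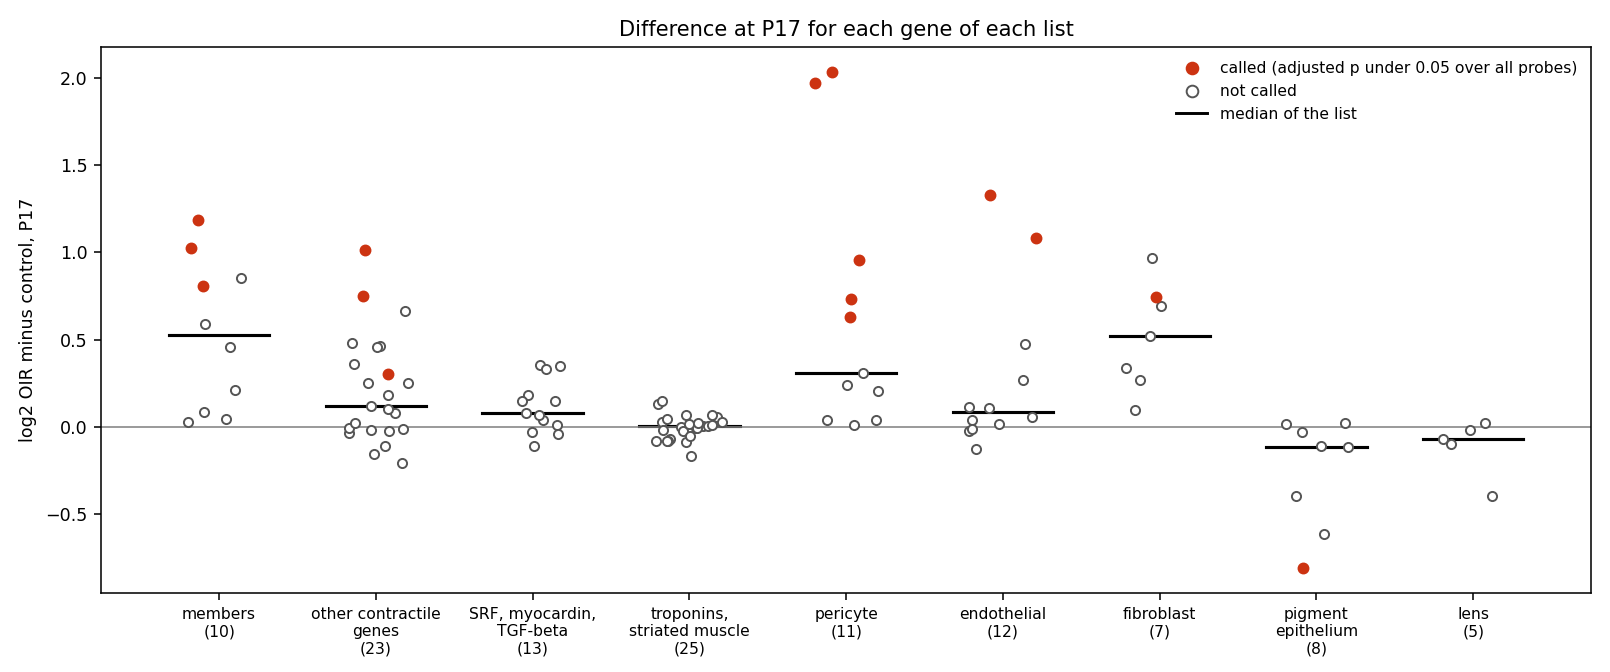
Difference between OIR and control mice on P17 (y axis, log2) for each gene of 9 lists (x axis, number of genes in brackets), with filled points for genes called over all probes and a bar for the median of the list. The medians are 0.52 for the members, 0.12 for the other contractile genes and 0.0031 for the troponins and striated muscle genes, and 5 of 11 pericyte genes are filled.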

How the data were processed

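Retina RNA of 77 mice was hybridized with universal mouse reference RNA on two-color Agilent 8x60K arrays, with an array for each mouse. Groups were taken from the sample titles. Per the file headers, Agilent Feature Extraction 10.7.3.1 gave for every spot the intensity in each dye, as a median and as a processed value, and that of its surroundings. The deposited scanner files also hold log10 ratios of Cy5 to Cy3, which were not used here. In the series table, the deposited values are log2 of processed Cy3 over processed Cy5. On every array at least 99.66% of its probes had that value within 0.001, and the column medians were between −0.127 and 0.00993. The settings of the authors' normalization are not given in the sources used here.

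For the offset ratio, the median signals were corrected with normexp and an offset of 50, normalized by loess within each array, and turned to retina over reference (limma 3.58.1, R 4.3.3). Spots marked as outliers were left out, 0.29 to 0.582% of an array, and the spots of a probe were averaged. Against a group without an array well above background, log2 differences are given as fitted values and a fold only as a bound from the retina channel, which takes for each array the higher of the probe's signal and the lowest signal well above background. A gene with several probes was represented by the brightest one.

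The OIR and control groups were compared day by day with the moderated *t*-statistic of limma with the Benjamini-Hochberg adjustment over 55681 probes, at an adjusted *p* of 0.05. Age was tested in one model with 6 group means. The fits were also run on simulated arrays with independent normal noise for each probe and array. That simulation held no effect of slide or array brightness, so it cannot show how the fits behave under these. The spread is that between mice, and the number of arrays limits its precision. The members and all gene lists were chosen with earlier results of these data known. Named are all members, up to 4 called genes per list and day with the largest change (in addition, some list genes that are known markers, chosen by their role after their values were seen), the 5 genes most like *Tnnt2* and *Acta2*, and the neighbours of *Tnnt2*. A gene of the rod list is not reported here. Figures were drawn with matplotlib.

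The alternatives were the deposited ratio, an offset of 0, no background subtraction, a filter on dim probes, the slide as a block, the retina channel alone, a variance trend, 1 model over all groups and the probe with the smallest *p*. Both alternatives on array brightness were added after the data were seen.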

Additional observations from a re-analysis of the deposited data

How the results depend on the processing

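No paired analysis was possible because every mouse had its own number and the groups share none. With 12 to 14 mice in a group, no mouse was left out in turn. Of the members, 3 were called on P17 in the offset ratio, 6 in the deposited ratio, 5 with an offset of 0, 6 in the retina channel alone and 5 with array brightness as a covariate, where 1.13, 2.64, 1.65, 3.04 and 3.68% of all probes were called. On P28 no member was called in the offset ratio and 1, *Tnnt2*, was called in the deposited ratio, with an offset of 0, without background subtraction, with the slide as a block, in the retina channel alone and with the covariate. From P17 to P28 in the control mice, 3 were called, and 0 with the covariate or on the arrays with fewer than 25000 probes well above background, both chosen after seeing the data, and *Actg2* turned from −0.72 to 0.05048 with the covariate. Of the other contractile genes, 3 were called on P17, 5 in the deposited ratio, 6 with an offset of 0, 6 in the retina channel alone and 7 with the covariate. The median change of the members' difference from P12 to P17 was 0.33, and it was 1.203 in the deposited ratio, 1.264 with an offset of 0 and 0.7253 with the filter on dim probes, which leaves fewer members. Except for the filter, the cause was not tested. *Actg2*, *Cnn1*, *Des*, *Myh11* and *Lmod1* are limited by signals near background.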

Other observations

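*Tnnt2* lies on chromosome 1 between *Lad1* and *Pkp1*, the nearest genes with a probe in the RefSeq order. Of the 3 genes before it, *Lad1*, *Tnni1* and *Phlda3*, and the 3 after it, *Pkp1*, *Igfn1* and *Tmem9*, 1 was called on P17 in limma and 0 on P28 in the offset ratio. Of all probes, 1.13% were called on P17 and 0.0611% on P28, and nothing about the region is read from so few genes. *Phlda3*, which encodes an inhibitor of Akt signalling, was higher in the OIR retinas by 0.86 (SE 0.15, adjusted *p* = 0.00145), and its offset ratio had a correlation of 0.81 with that of *Tnnt2* over 77 arrays. *Lad1*, the gene next to *Tnnt2*, was well above background on 18 arrays, and its difference on P28 was 0.17 (SE 0.035, adjusted *p* = 0.0613), 0.19 with the slide as a block (adjusted *p* = 0.0475) and 1.97 in the deposited ratio (adjusted *p* = 0.00216). With the slide as a block, *Pkp1* and *Phlda3* were also called on P28, at −0.20 (adjusted *p* = 0.0282) and 0.27 (adjusted *p* = 0.0443), where 0.219% of all probes were. *Tnni1*, the slow skeletal troponin I gene that adjoins *Lad1*, was well above background on 3 arrays and gave 0.03 (SE 0.036, adjusted *p* = 0.806) on P17.

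In the control mice, *Tnnt1*, the slow skeletal troponin T, rose with age by 0.92 (SE 0.070, adjusted *p* = 1.8e-16 in limma) from P12 to P17 and by 0.46 (SE 0.067, adjusted *p* = 7.64e-07) from P17 to P28, while *Tnnt2* gave 0.0013 and −0.15. The brightness of the arrays differed between P17 and P28, and its part in the second value was not tested.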
